A study of Homo sapiens with 6 samples.

Results

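Integrins and laminins are the genes described here, taken as symbols in the count table of the form ITGA followed by letters or digits, ITGB followed by a digit, or LAMA, LAMB or LAMC followed by a digit. Of the 26490 symbols in the table, 37 genes of that form were analysed, 26 of them integrins and 11 laminins. The 26 with a mean of at least 10 counts over the 6 libraries are reported, namely 11 integrin alpha subunits, 6 integrin beta subunits and 9 laminin chains. RNA-seq was done on SW403, an established colon adenocarcinoma cell line, and the series is about the part IRS2 plays in colorectal cancer that reaches the brain. The 3 control libraries carry the genotype label WT and the letters NS, and the 3 knockdown libraries the genotype label IRS2_knockdown and the letters IRS2KO. Both groups were grown for 24 h in DMEM with 10% fetal bovine serum and received no treatment. The sources used here do not say how IRS2 was lowered or whether replicates are separate lines. The sample titles label the libraries of each group as biological replicates (bio_rep), and the sources say that cells were seeded in triplicate. The p-values therefore measure the spread between such cultures, which may be technical.

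Integrins are receptors in the cell membrane, each made of an alpha and a beta subunit, that bind proteins of the extracellular matrix or of neighbouring cells and connect them to the actin or keratin cytoskeleton. The alpha subunit largely sets the ligand (laminin, collagen, RGD-containing proteins such as fibronectin, or counter-receptors on other cells), while ITGB1 is the shared partner of most alpha subunits. Laminins are secreted trimers of an alpha, a beta and a gamma chain that assemble into the basement membrane, the sheet on which the intestinal epithelium sits. IRS2 encodes an adaptor of the insulin and IGF1 receptors, and signals from integrins and from these receptors meet at kinases such as focal adhesion kinase.

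The libraries held between 11816973 and 12585013 counts in control and between 14329348 and 18114656 in knockdown, so every knockdown library was the deeper. IRS2 itself had 408, 437 and 381 counts in control and 186, 210 and 216 in knockdown, a log2 fold change of -1.39 ± 0.07 (SE; edgeR adjusted p 3.12e-11). The keratins of simple epithelia were abundant, with KRT8 at 1106 and KRT18 at 1131 CPM (the count of a gene over the total of its library, on the usual CPM scale) in control. Of 13 listed markers of colon epithelium, KRT19 (230 CPM in control), CDX2 (77.7), EPCAM (40.2) and VIL1 (4.34) were also expressed, and of these KRT19 and EPCAM fell and CDX2 rose in knockdown. The other 7 had a mean under 10 counts, among them CDH1, the E-cadherin gene, and KRT20, CDX1 and CEACAM5, which had no count in any library. No endothelial marker reached a mean of 10 counts, and of 10 leukocyte markers only CORO1A did. The summed level of 6 neural markers ran from 148 to 149.5 CPM in control and from 131 to 139 CPM in knockdown. Most of it was TUBB3 (111.5 CPM in control), which did not pass, and SYT1 (36.6 CPM), which fell (edgeR adjusted p 0.000461). The summed level of 9 fibroblast markers ran from 9.56 to 28.2 CPM in control and from 5.98 to 7.45 CPM in knockdown. The highest value was that of control replicate 1, mostly from the collagens COL1A1 (15.3 CPM), COL1A2 (6.83) and COL3A1 (2.70). Of the 9, 3 were tested: COL1A1 and COL3A1 fell, and PDGFRB did not pass (edgeR adjusted p 0.609). A mean under 10 counts was found for 5 of the 9, among them THY1 and FAP with at most 1 count in a library.

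Of these 26 genes, 25 passed the expression filter and were tested with edgeR's quasi-likelihood test, and 18 had an adjusted p under 0.05. Of all 13832 genes tested, 38.5% did. ITGB1, LAMB1, ITGA5, LAMC1, ITGA7, ITGA2, ITGB4, LAMA5, ITGA6, LAMA3 and ITGB8 rose in knockdown, 11 genes against a background of 19.3% of tested genes. LAMA4, ITGA4, LAMA1, ITGA2B, ITGA1, ITGAE and ITGB5 fell, 7 genes against a background of 19.2%. With library size alone as the scaling, the calls over all genes were 2206 higher and 3198 lower, in place of 2676 and 2653. The CPM values of the groups did not overlap for 17 of the 25, compared with 48.4% of all tested genes. The median absolute log2 fold change was 0.29 over the 25 genes and 0.14 over all tested genes, and the signed medians were 0.02 and -0.0039. Of the 25, 3 passed the filter only through the control libraries (ITGA2B, LAMA4 and LAMC3), so these counts are a description and not support for a shared direction.

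**Figure D1:**
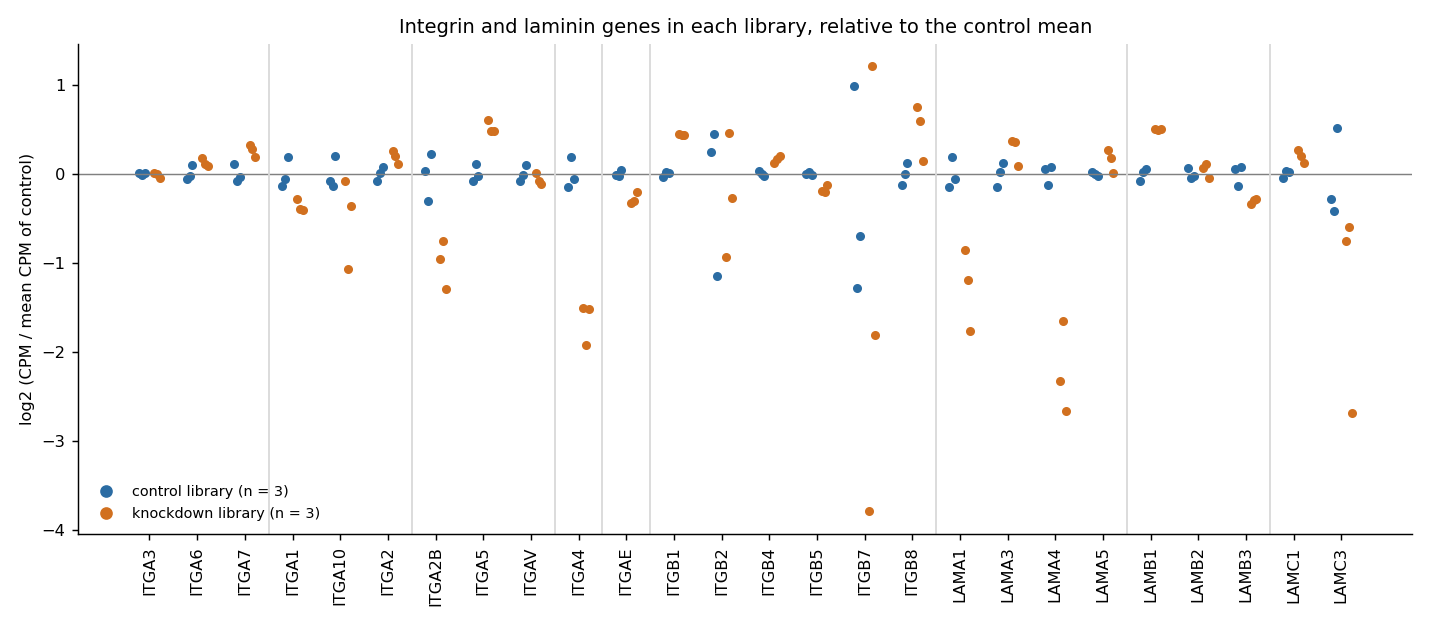
Each point is the CPM of a gene in a library divided by the control mean of that gene, on a log2 scale, with control libraries in blue and knockdown libraries in orange; grey lines separate the roles from laminin-binding alpha subunits on the left to laminin gamma chains on the right. The 3 knockdown points of ITGB1, ITGA5 and LAMB1 lie above all their control points, those of LAMA4, ITGA4 and LAMA1 lie far below, and ITGB2 and ITGB7 scatter in both groups.

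Levels were compared between genes as CPM per kb of the GENCODE canonical transcript. In control, ITGA6 was the most abundant alpha transcript at 64.0 ± 3.75 CPM per kb (SD, n = 3), followed by ITGA3 at 22.9 ± 0.185, ITGAV at 15.7 ± 0.970 and ITGA7 at 11.2 ± 0.809. ITGAE at 8.95, ITGA5 at 8.13, ITGA1 at 6.02 and ITGA2 at 5.32 CPM per kb came next, and the control ranges of ITGA1 and ITGA2 overlapped. ITGA4, ITGA10 and ITGA2B lay under 1 CPM per kb in every library, and the ranges of the last pair overlapped in control. The 3 laminin-binding alpha subunits together made up 69.1%, 67.9% and 68.2% of the summed alpha level per kb in the control libraries and 69.8%, 70.3% and 69.9% in the knockdown libraries. Laminin-binding subunits were the bulk of the alpha transcripts in every library.

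**Figure D2:**
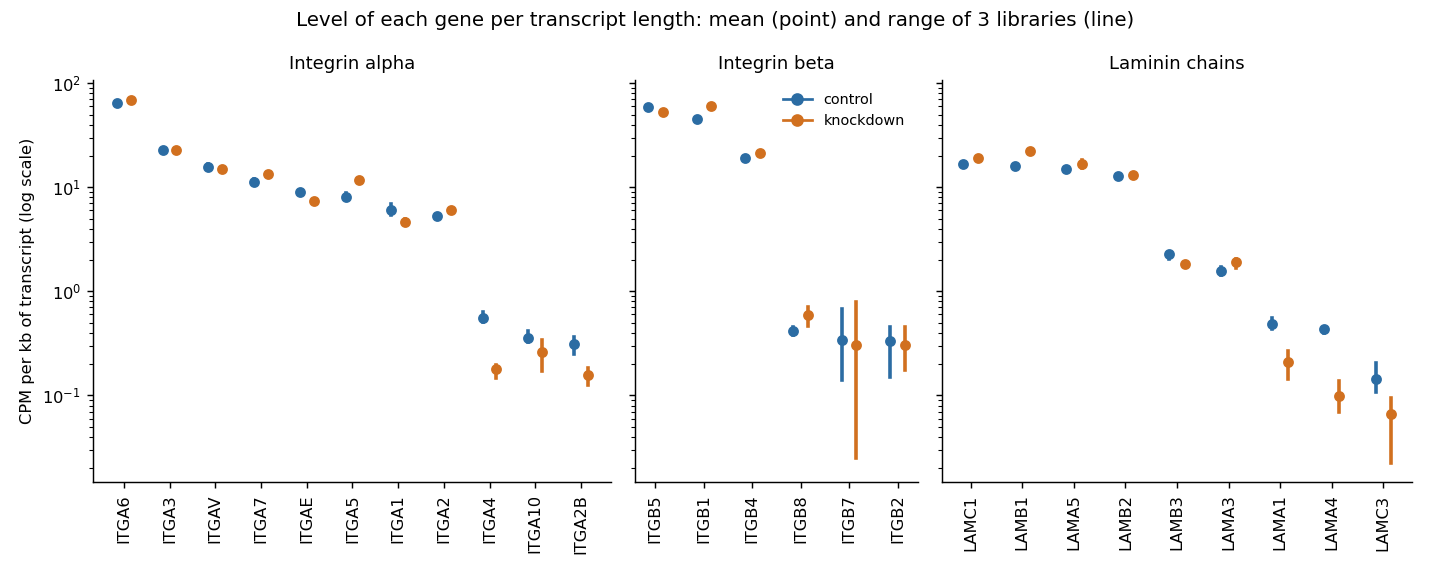
CPM per kb of transcript on a log axis for 11 integrin alpha, 6 integrin beta and 9 laminin genes, ordered by the control level; points are means and lines the range of 3 libraries, blue for control and orange for knockdown. ITGB5 lies above ITGB1 in control (59.5 against 45.1) and below it in knockdown (52.8 against 61.0), and the genes at the right of each panel lie under 1 CPM per kb.

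ITGB1 encodes the beta subunit shared by laminin, collagen and fibronectin receptors. It showed the largest rise among the beta subunits after that of the low-level ITGB8, and the smallest p of the 25 tested genes. It lies on chromosome 10 (GRCh37, 33176201 to 33294720, minus strand) and had 164.5, 171 and 170 CPM in control and 229.6, 227 and 227 CPM in knockdown. The groups were far apart and the replicates close together. The log2 fold change was 0.47 ± 0.03 (SE), a 1.38-fold rise (edgeR adjusted p 2.19e-09).

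ITGB5, which pairs with ITGAV into a receptor for vitronectin, moved the other way. It had 264, 268 and 261 CPM in control and 231, 230 and 242 CPM in knockdown, groups that did not overlap. Its log2 fold change was -0.14 ± 0.03 (SE; edgeR adjusted p 0.00201). Per kb, ITGB5 was at 59.5 ± 0.759 and ITGB1 at 45.1 ± 0.943 in control, while in knockdown ITGB5 was at 52.8 ± 1.52 and ITGB1 at 61.0 ± 0.402 (SD, n = 3 each). By this measure, ITGB5 came before ITGB1 in every control library and ITGB1 before ITGB5 in every knockdown library. In CPM, without the length, ITGB5 stayed above ITGB1 in the knockdown libraries too (231, 230 and 242 against 229.6, 227 and 227). ITGB1 made up 35.3%, 36.3% and 36.7% of the summed beta level in control and 45.4%, 44.7% and 43.98% in knockdown. The share of ITGB5 went from 47.8%, 47.8% and 47.5% to 38.5%, 38.0% and 39.5%. These shares and the order rest on the length of a single transcript per gene. That length scales all libraries alike, but the order between genes depends on it.

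ITGB4, the partner of ITGA6 in hemidesmosomes, where it binds plectin, had 115.5, 113 and 111 CPM in control and 123, 127 and 130 CPM in knockdown. Every knockdown value was above every control value, and the rise was small (log2 fold change 0.19 ± 0.04 SE, edgeR adjusted p 0.000486). Its share of the beta level overlapped between the groups, at 15.2% to 15.7% in control and 15.4% to 15.9% in knockdown. ITGB8, which with ITGAV can free latent TGF-beta, was a low-level gene with 43, 47 and 48 counts in control and 90, 96 and 75 in knockdown. Its log2 fold change was 0.53 ± 0.18 (SE; edgeR adjusted p 0.0219). That call was lost without control replicate 1 (adjusted p 0.0876), control replicate 2 (0.0529), knockdown replicate 1 (0.103) or knockdown replicate 2 (0.0746), and in the Wald test of DESeq2 (0.108).

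The leukocyte beta subunits were near the detection limit. ITGB2 had 14, 16 and 5 counts in control and 7, 22 and 14 in knockdown, and did not pass (edgeR adjusted p 0.877). ITGB7 had 24, 5 and 7 counts in control and 1, 38 and 5 in knockdown, so that a single library held most of the counts in each group, and it failed the expression filter. Without the filter its log2 fold change was -0.10 ± 0.37 (SE; edgeR adjusted p 0.882). The canonical ITGB7 transcript shares 52.4% of its exon bases with another gene, ZNF740, on the opposite strand, and no strand setting is given in the sources used here. ZNF740 had 39.4 ± 3.85 CPM in control against 37.8 ± 0.398 in knockdown (SD over 3 libraries). ITGB6, an epithelial partner of ITGAV, and ITGB3, its platelet and endothelial partner, were among the 11 genes under the minimum. Those 11 had between 0 and 13 counts in a library, none passed the filter, and ITGAD had no count at all. LAMC3, with a mean of 10.5 counts, was the reported gene nearest to the minimum, and LAMA2, with a mean of 8.50 counts, the nearest one below it.

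**Figure D3:**
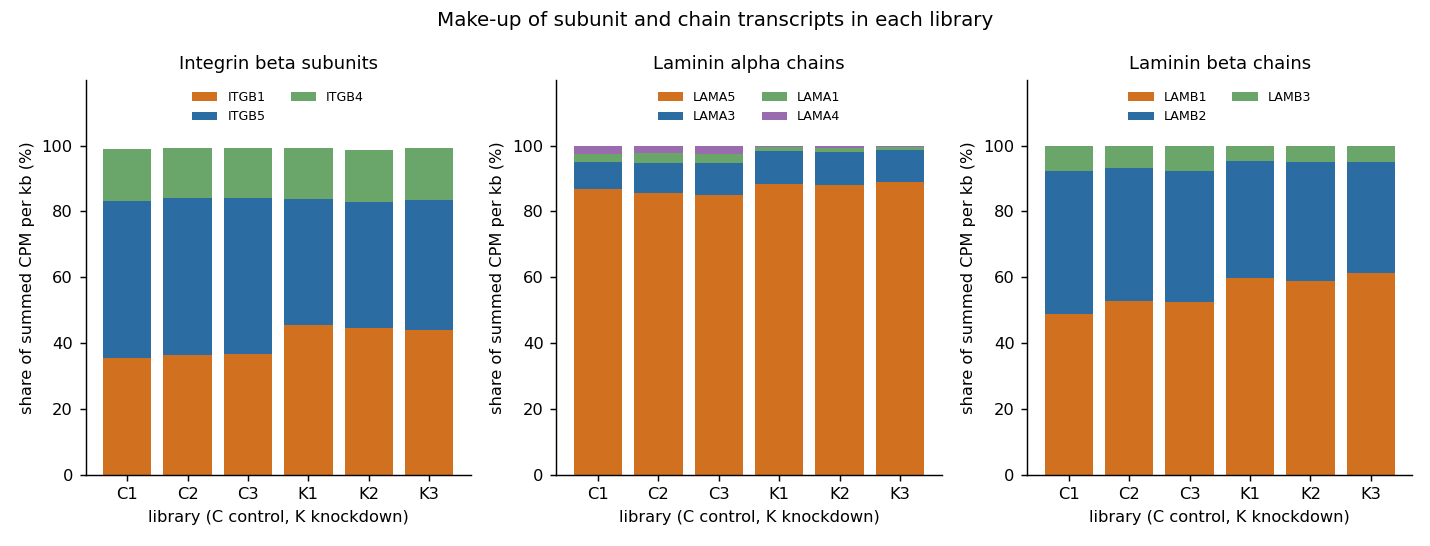
Stacked bars give each gene's share, in percent, of the summed CPM per kb of its family in the 3 control (C) and 3 knockdown (K) libraries; the small remainder in the beta panel belongs to ITGB2, ITGB7 and ITGB8. The ITGB1 share is 35.3% to 36.7% in control and 43.98% to 45.4% in knockdown, and that of LAMB1 48.9% to 52.8% and 58.8% to 61.3%.

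Of the laminin-binding alpha subunits, ITGA7 and ITGA6 rose and ITGA3 did not pass. ITGA7, best known as the laminin receptor of muscle, had 50.1, 43.7 and 45.1 CPM in control and 57.8, 56.0 and 52.5 CPM in knockdown, without overlap (log2 fold change 0.29 ± 0.06 SE, edgeR adjusted p 0.000424). ITGA6, the partner of both ITGB1 and ITGB4, had 356, 364 and 397 CPM in control and 420, 400 and 396 CPM in knockdown. Control replicate 3 lay just above the lowest knockdown library, so the groups overlapped. The log2 fold change of ITGA6 was 0.15 ± 0.04 (SE; edgeR adjusted p 0.00268). ITGA3, which forms with ITGB1 the main laminin receptor of many epithelia, had the smallest log2 fold change in size of the 25 tested genes. It had 112, 111 and 113 CPM in control and 112, 112 and 108 CPM in knockdown (log2 fold change 0.02 ± 0.04 SE, edgeR adjusted p 0.771), and its sign flipped to -0.01 with library size alone as the scaling.

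The collagen-binding alpha subunits went in opposite directions. ITGA2 had 39.5, 41.9 and 43.8 CPM in control and 49.9, 48.1 and 44.8 CPM in knockdown, so all knockdown values were higher (log2 fold change 0.22 ± 0.06 SE, edgeR adjusted p 0.00436). ITGA1, its neighbour on chromosome 5 (GRCh37, ITGA1 from 52083750 to 52255039 and ITGA2 from 52285170 to 52390609, both on the plus strand), fell. ITGA1 had 58.6, 61.9 and 73.5 CPM in control and 53.0, 49.3 and 48.9 CPM in knockdown. Control replicate 3 was the highest library, and the other control libraries still lay above all knockdown libraries. Its log2 fold change was -0.33 ± 0.07 (SE; edgeR adjusted p 0.000470), and without control replicate 3 it was -0.23 (adjusted p 0.00372). PELO, which starts within the ITGA1 locus and shares 499 bases with its canonical exons on the same strand, had 58.6 ± 1.58 CPM in control against 54.1 ± 1.66 in knockdown (SD over 3 libraries; edgeR adjusted p 0.164). ITGA10, a collagen receptor of cartilage, had 15 to 26 counts per library and did not pass (edgeR adjusted p 0.244).

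ITGA5, the alpha subunit of the fibronectin receptor, showed the largest log2 fold change of the 11 that rose, with ITGB8 and LAMB1 within its standard error. It lies on chromosome 12 (GRCh37, 54789045 to 54813050, minus strand) and had 32.6, 37.2 and 33.8 CPM in control and 52.3, 48.0 and 48.0 CPM in knockdown. The lowest knockdown library was well above the highest control library, and the log2 fold change was 0.54 ± 0.06 (SE), a 1.46-fold rise (edgeR adjusted p 6.95e-07). FN1, the fibronectin gene, fell from 89.0 ± 4.06 CPM to 79.3 ± 5.33 (SD over 3 libraries, log2 fold change -0.14 ± 0.05 SE, edgeR adjusted p 0.0322). ITGAV, the common partner of ITGB5, ITGB6 and ITGB8, had 104, 109 and 117.7 CPM in control and 111, 104 and 102 CPM in knockdown. Its groups overlapped and it did not pass (log2 fold change -0.04 ± 0.05 SE, edgeR adjusted p 0.582). ITGA2B, the platelet fibrinogen receptor subunit, had 14, 11 and 15 counts in control and 8, 11 and 8 in knockdown. Its log2 fold change was -0.95 ± 0.35 (SE; edgeR adjusted p 0.0376), and the call was lost in 5 of the 6 fits that each left out a library (without control replicates 1 or 3, or any knockdown replicate; adjusted p 0.0563 to 0.133) in DESeq2's Wald test (0.255) and without the low-count filter (0.0690).

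ITGA4 and ITGAE, alpha subunits known mainly from lymphocytes, both fell. ITGA4, which binds VCAM1, MADCAM1 and fibronectin, had 43, 54 and 43 counts in control and 19, 17 and 24 in the deeper knockdown libraries. That is 3.79 ± 0.459 and 1.22 ± 0.190 CPM (SD, n = 3 each), a log2 fold change of -1.61 ± 0.22 (SE; edgeR adjusted p 1.21e-05). Its canonical transcript, on chromosome 2 (GRCh37, 182321929 to 182403667, plus strand), shares 41.5% of its exon bases with CERKL on the opposite strand. CERKL had at most 6 counts in a library, fewer than ITGA4 in each. ITGAE, which pairs with ITGB7 and binds E-cadherin, was not a low-level gene, with 33.7, 33.4 and 35.0 CPM in control and 27.1, 27.6 and 29.5 CPM in knockdown. It fell in every knockdown library relative to every control library (log2 fold change -0.24 ± 0.06 SE, edgeR adjusted p 0.00331), and DESeq2's Wald test gave an adjusted p of 0.0510. Its known partners were scarce in both groups: ITGB7 had a mean of 13.3 counts, and CDH1, which encodes E-cadherin, had at most 5 counts in a library.

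Among the laminins, the 3 chains with the highest level per kb, LAMA5, LAMB1 and LAMC1, rose, and 2 low-level alpha chains, LAMA4 and LAMA1, fell. LAMB2, also abundant, did not pass. In control, LAMC1 at 16.8 ± 0.530, LAMB1 at 15.9 ± 0.767 and LAMA5 at 15.1 ± 0.228 CPM per kb (SD, n = 3 each) formed a group of like level, with LAMB2 next at 12.7 ± 0.535. The ranges of LAMC1 and LAMB1, and of LAMB1 and LAMA5, overlapped in control. In knockdown the order was LAMB1 at 22.4 ± 0.0347, LAMC1 at 19.2 ± 0.978, LAMA5 at 16.8 ± 1.49 and LAMB2 at 13.1 ± 0.775 CPM per kb, and no neighbours in it overlapped. LAMA5, LAMB1 or LAMB2, and LAMC1 are among the laminin chains found under adult intestinal epithelium.

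LAMB1 showed the largest rise of the laminin chains. It lies on chromosome 7 (GRCh37, 107564244 to 107643658, minus strand) and had 84.8, 91.1 and 93.1 CPM in control and 126.7, 126 and 126.5 CPM in knockdown. The knockdown libraries were nearly equal and all above the control libraries (log2 fold change 0.53 ± 0.04 SE, 1.44-fold, edgeR adjusted p 7.51e-09). LAMC1, on chromosome 1 (GRCh37, 182992555 to 183114727, plus strand), had 128, 136 and 134.5 CPM in control and 160, 153 and 144 CPM in knockdown, also without overlap. Its log2 fold change was 0.23 ± 0.04 (SE; edgeR adjusted p 0.000208). LAMA5, on chromosome 20 (GRCh37, 60883011 to 60942368, minus strand), had 175, 173 and 170 CPM in control and 207.5, 196 and 174 CPM in knockdown. Knockdown replicate 3 lay within the control range, and LAMA5 passed with a log2 fold change of 0.18 ± 0.05 (SE; edgeR adjusted p 0.00429).

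LAMB2, which can replace LAMB1 in the trimer, did not pass. It had 76.0, 70.2 and 71.3 CPM in control and 75.7, 78.5 and 69.8 CPM in knockdown (log2 fold change 0.07 ± 0.05 SE, edgeR adjusted p 0.279). LAMB1 therefore took a larger part of the beta chain transcripts, from 48.9%, 52.8% and 52.5% in control to 59.8%, 58.8% and 61.3% in knockdown. The share of LAMB2 went from 43.5%, 40.4% and 39.9% to 35.5%, 36.3% and 33.6%, and these groups did not overlap either.

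LAMA3 and LAMB3 encode chains of the laminin that anchors hemidesmosomes, and their fitted changes had opposite signs. LAMA3 had 15.2, 17.0 and 18.2 CPM in control and 21.6, 21.4 and 17.8 CPM in knockdown, with knockdown replicate 3 inside the control range (log2 fold change 0.30 ± 0.09 SE, edgeR adjusted p 0.0126). This call was lost without control replicate 1 (adjusted p 0.0812), without knockdown replicate 2 (0.0657) and in DESeq2's Wald test (0.0670). LAMB3 had 9.46, 8.28 and 9.65 CPM in control and 7.19, 7.44 and 7.51 CPM in knockdown. Its groups did not overlap, yet its log2 fold change of -0.27 ± 0.11 (SE) did not pass (edgeR adjusted p 0.0642). It passed with library size alone as the scaling (0.0404), after the effects of transcript length and GC content were corrected (0.0335), and barely without control replicate 2. Per kb, LAMA3 was at 1.57 CPM and LAMB3 at 2.27 CPM in control, and at 1.90 and 1.84 in knockdown.

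LAMA4 showed the largest fall of the 25 tested genes. This chain, typical of the basement membranes of vessels, muscle and mesenchymal cells, lies on chromosome 6 (GRCh37, 112429134 to 112576141, minus strand). It had 41, 36 and 39 counts in control and 9, 17 and 9 in knockdown, which is 3.14 ± 0.240 and 0.707 ± 0.259 CPM (SD, n = 3 each). The log2 fold change was -2.11 ± 0.27 (SE), 4.31-fold (edgeR adjusted p 5.19e-06). LAMA1, the chain of early embryonic basement membranes, had 53, 67 and 53 counts in control and 37, 35 and 25 in knockdown, groups that did not overlap (log2 fold change -1.21 ± 0.22 SE, edgeR adjusted p 0.000174). LAMA4, LAMA1 and ITGA4 had fewer counts in every knockdown library than in any control library although the knockdown libraries were deeper, and no other of the 26 genes did. Without control replicate 1, the library with the highest fibroblast marker sum, the log2 fold changes were -2.08 for LAMA4, -1.68 for ITGA4 and -1.29 for LAMA1. The remaining control libraries, at 11.3 and 9.56 CPM, still had higher marker sums than every knockdown library (5.98 to 7.45 CPM). That fit therefore cannot tell what part other cells, if any were present, had in the falls, which was not tested. LAMC3 had 11, 10 and 18 counts in control and 9, 12 and 3 in knockdown and did not pass (log2 fold change -1.08 ± 0.44 SE, edgeR adjusted p 0.0601). It passed without the low-count filter (0.0427), after the length and GC correction (0.0464) and without knockdown replicate 2 (0.0456).

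Among the abundant genes more rose than fell, and among the low-level genes more fell than rose. Of the 17 genes whose mean reached 100 counts, 10 rose and 3 fell, and of the 8 tested genes below that mean, 1 rose and 4 fell. LAMA4 and ITGA2B, among these 4, passed the filter only through the control libraries, where they were high, so their direction was in part set by the filter. Over all tested genes, 23.8% of those whose mean reached 100 counts were higher and 17.5% lower, while below that mean 5.62% were higher and 24.3% lower. A log2 fold change of -1 or below, the size fitted for LAMA4, ITGA4, LAMA1 and the LAMC3 that did not pass, was found for 15.8% of all tested genes below a mean of 100 counts and 0.699% of those above it. COL1A1, a fibroblast marker, had 193, 72 and 67 counts in control and 61, 62 and 72 in knockdown, and COL1A2, another, had 86, 11 and 3 in control and 8, 1 and 8 in knockdown. The part of other cells in the falls of low-level genes was not tested, and in bulk RNA fewer cells of a type and less RNA per cell cannot be told apart.

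**Figure D4:**
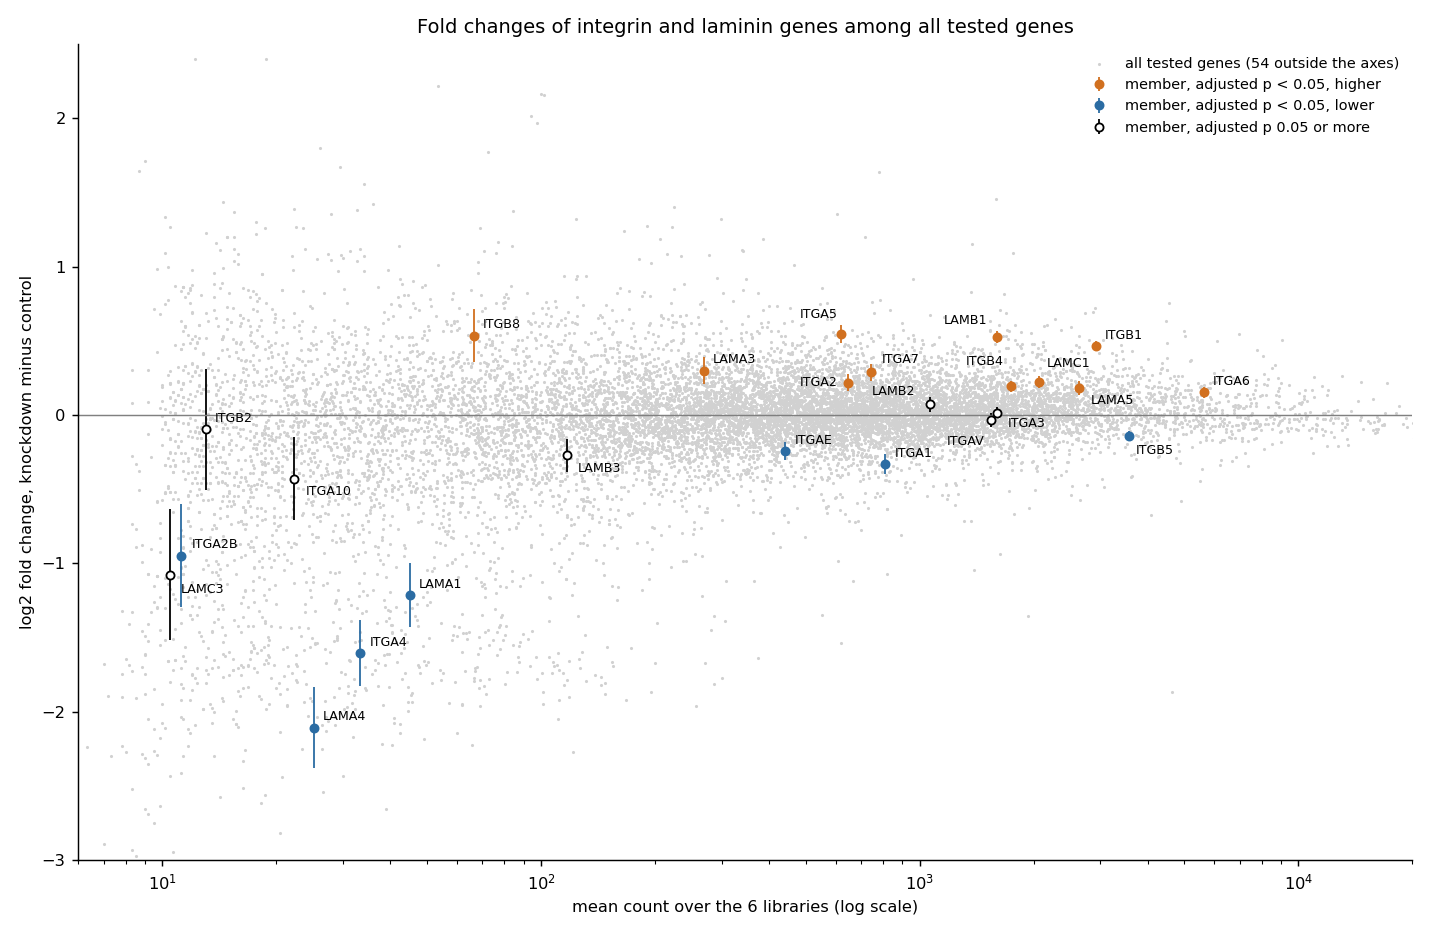
The log2 fold change of each tested integrin and laminin gene with its standard error is plotted against its mean count over the 6 libraries on a log axis, over all tested genes in grey; 54 genes lie outside the axes. Genes whose mean reached 100 counts lie within a log2 fold change of 0.54 of 0, while LAMA4, ITGA4 and LAMA1, at means of 25.2, 33.3 and 45.0 counts, lie among the grey genes at -1.21 and below.

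Transcript length was looked at beside these results because integrin and laminin transcripts are long. Their canonical transcripts ran from 2806 nt (ITGB7) to 11426 nt (LAMA5), with a median of 5754 nt, compared with 3282 nt over the tested genes that have one. Of the 7394 tested genes in that length range 43.0% passed, and their median log2 fold change was 0.02. With both length and GC content corrected, 20 of the 25 genes passed, 11 higher and 9 lower, against 42.2% of all tested genes. The log2 fold changes of ITGB1 (0.47), LAMB1 (0.52) and ITGA5 (0.51) after it were within 0.04 of those without it.

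Among genes for proteins that connect integrins to actin, more rose than fell. Of 30 adaptor and focal adhesion genes listed, 27 were tested and 18 passed, 16 higher and 2 lower, where 38.5% of all tested genes passed. All 18 had a mean of at least 100 counts, a level at which 23.8% of all tested genes were higher and 17.5% lower. The median log2 fold change was 0.12. LIMS1, the adaptor PINCH that binds integrin-linked kinase, rose from 453 ± 9.68 CPM to 602 ± 4.09 (SD over 3 libraries; log2 fold change 0.44, edgeR adjusted p 6.80e-10). TNS4, a tensin that binds beta tails, rose from 93.5 ± 5.69 to 136 ± 3.75 CPM (log2 fold change 0.57, edgeR adjusted p 5.91e-09), and FLNA, the actin crosslinker filamin A, from 2336 ± 62.4 to 2796 ± 109 CPM (log2 fold change 0.29, edgeR adjusted p 2.10e-07). TLN1, the main talin, and FERMT1, the epithelial kindlin, which switch integrins to their active form, rose by log2 fold changes of 0.12 and 0.28. The genes of this list that fell were NEDD9, a scaffold protein of focal adhesions (-0.80, edgeR adjusted p 1.28e-08), and TLN2 (-0.33, edgeR adjusted p 0.0173). PTK2, which encodes focal adhesion kinase, and ILK, integrin-linked kinase, did not pass (edgeR adjusted p 0.775 and 0.594).

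Of 11 listed genes that inactivate integrins or carry them through endosomes, 10 were tested, 1 was higher and 4 lower. These 5 of 10 are near the 41.3% called over all tested genes of that level, so the count is no result about the list. The median log2 fold change of the tested genes was -0.11. SNX17, a sorting nexin that binds beta tails and returns beta1 integrins from endosomes to the surface, fell from 138 ± 3.23 CPM to 65.4 ± 3.11 (SD over 3 libraries; log2 fold change -1.04, edgeR adjusted p 2.09e-12), and no gene of the 4 lists had a smaller p. RAB21, a small GTPase of integrin endocytosis, and NISCH, an ITGA5-binding protein, fell by log2 fold changes of -0.28 and -0.20. KRIT1, which releases ITGB1 from its inhibitor ITGB1BP1, rose (0.15, edgeR adjusted p 0.0132).

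Partners of laminin in the basement membrane and of ITGB4 in hemidesmosomes went both ways. Of 28 genes listed, 24 were tested, 6 were higher and 10 lower. All 6 were among the 15 tested genes of the list with a mean of at least 100 counts, a level at which 23.8% of all tested genes were higher. Of the 10, 9 had a mean under 100 counts. These were all the 9 tested genes of the list at that level, where 24.3% of all tested genes were lower. NTN4 (1.185 CPM in control, 0.419 in knockdown) and COL4A4 (1.02 and 0.406) had knockdown means under the filter cutoff of 0.743 CPM. They passed mainly through the control libraries, so their direction was in part set by the filter. The median log2 fold change of the tested genes was -0.0088. COL18A1 (0.47), AGRN, which binds laminin (0.30), NID1, the nidogen that joins laminin to collagen IV (0.29), HSPG2, the perlecan gene (0.29), and PLEC and DST, hemidesmosome plakins (0.26 and 0.32), rose. Each of these had a mean of at least 960 counts. PXDN, which crosslinks collagen IV, fell from 8.91 ± 1.37 CPM to 3.14 ± 0.423 (SD over 3 libraries; log2 fold change -1.48, edgeR adjusted p 5.06e-07), FREM2 by -1.42 and COL4A1 by -1.78. COL4A1 went from 3.75 ± 0.534 to 1.05 ± 0.309 CPM, while COL4A2, the gene next to it whose chain assembles with that of COL4A1, was at 38.3 ± 2.73 CPM in control, at 39.8 ± 0.884 in knockdown, and did not pass (edgeR adjusted p 0.258). CD151, a tetraspanin bound to laminin-binding integrins, and BCAM and DAG1, other laminin receptors, did not pass (edgeR adjusted p 0.663, 0.206 and 0.200).

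Of 24 other ligands of integrins listed, 19 were tested, 4 were higher and 13 lower, where 19.2% of all tested genes were lower. Of the 13, 9 stood among the 11 tested genes of the list with a mean under 100 counts, where 24.3% of all tested genes were lower. The other 4 stood among 8 tested genes of the list above that mean, 4 of them higher. NPNT (1.194 CPM in control, 0.371 in knockdown) and COL3A1 (1.55 and 0.456), among the 9, had knockdown means under the filter cutoff of 0.743 CPM. They passed mainly through control libraries, so their direction was in part set by the filter. The CPM values of COL3A1 also overlapped between the groups. The median log2 fold change of the tested genes was -0.69. EDIL3 (-1.83), LTBP1 (-1.17) and MFGE8 (-0.50), which carry RGD motifs read by ITGAV integrins, fell, and MFGE8 went from 32.8 ± 2.82 to 22.7 ± 0.159 CPM (SD, n = 3 each). TGFB1, whose latent form is a ligand of ITGAV integrins, rose from 109 ± 3.51 to 157 ± 3.35 CPM (log2 fold change 0.56, edgeR adjusted p 1.72e-09). ICAM1, a ligand of the ITGB2 integrins of leukocytes, rose from 6.56 ± 1.23 to 15.2 ± 1.25 CPM (log2 fold change 1.24), and TNC, tenascin C, from 7.77 ± 0.479 to 13.5 ± 1.02 CPM (log2 fold change 0.82). The list holds COL1A1 and COL3A1, also used above as fibroblast markers, and COL1A2, which failed the filter.

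**Figure D5:**
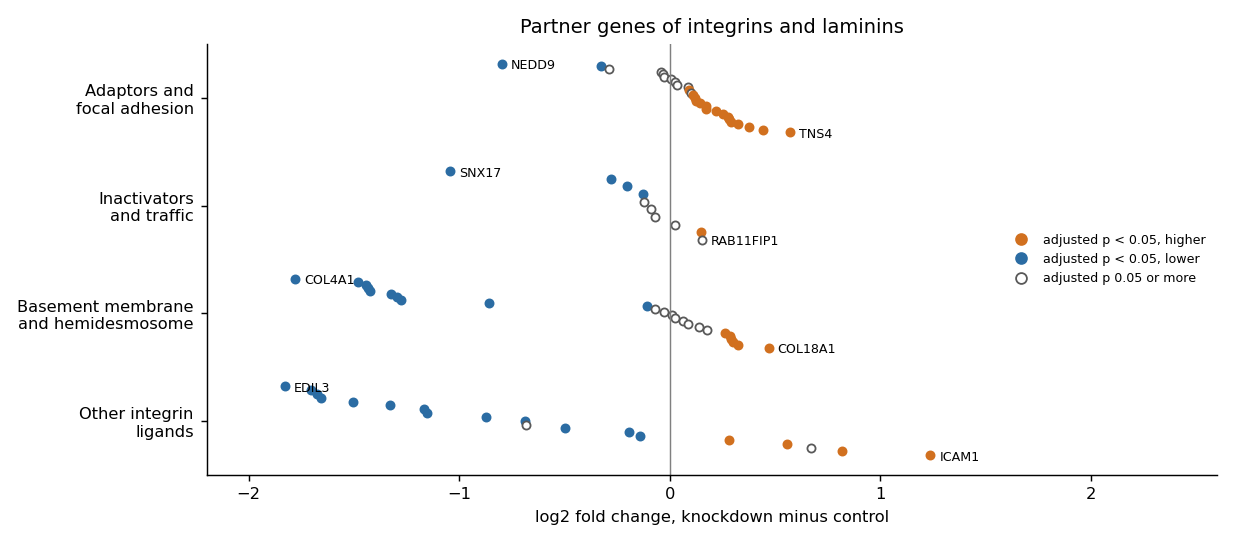
Log2 fold changes, knockdown minus control, of the tested genes of 4 lists of integrin and laminin partners, sorted within each list; orange points are higher and blue points lower at an adjusted p under 0.05, open points did not pass, and the lowest and highest gene of each list are named. Points of the adaptor list lie mostly between 0 and 0.57, and 13 of the 19 ligand genes are lower.

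The sequence upstream of the transcription start is shown for 3 abundant genes that rose, ITGB1, LAMB1 and LAMC1, and for LAMA4, which fell most. LAMA4 passed the filter only through the control libraries, so it does not stand for the other genes that fell. Each run is the 250 bases before the start, 5′ to 3′ on the strand of the gene, from RefSeq (GRCh38.p14), with capitals for any match, on either strand, to 6 motifs. They were the GC box (its letters are GGGCGG), the TATA box (TATAAA), the CCAAT box, the AP-1 site (TGANTCA), the TCF/LEF site (CTTTGNT) and the E-box (CACGTG).
ITGB1, chr10:32958231-32958480, minus strand: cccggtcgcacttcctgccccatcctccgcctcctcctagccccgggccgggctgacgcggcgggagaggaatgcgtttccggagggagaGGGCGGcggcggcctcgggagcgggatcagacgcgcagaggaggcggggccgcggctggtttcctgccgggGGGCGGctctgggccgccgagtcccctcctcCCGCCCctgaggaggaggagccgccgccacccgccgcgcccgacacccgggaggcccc
LAMB1, chr7:108003162-108003411, minus strand: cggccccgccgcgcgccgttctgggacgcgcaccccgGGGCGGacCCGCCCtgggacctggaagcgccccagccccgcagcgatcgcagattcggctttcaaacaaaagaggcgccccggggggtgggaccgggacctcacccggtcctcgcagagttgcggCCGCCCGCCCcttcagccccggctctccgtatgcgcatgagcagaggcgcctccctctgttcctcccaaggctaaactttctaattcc
LAMC1, chr1:183023170-183023419, plus strand: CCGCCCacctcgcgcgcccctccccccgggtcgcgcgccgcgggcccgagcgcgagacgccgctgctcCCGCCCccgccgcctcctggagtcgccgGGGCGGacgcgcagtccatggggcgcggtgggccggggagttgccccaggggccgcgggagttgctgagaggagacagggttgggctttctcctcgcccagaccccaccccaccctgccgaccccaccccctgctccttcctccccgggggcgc
LAMA4, chr6:112254568-112254817, minus strand: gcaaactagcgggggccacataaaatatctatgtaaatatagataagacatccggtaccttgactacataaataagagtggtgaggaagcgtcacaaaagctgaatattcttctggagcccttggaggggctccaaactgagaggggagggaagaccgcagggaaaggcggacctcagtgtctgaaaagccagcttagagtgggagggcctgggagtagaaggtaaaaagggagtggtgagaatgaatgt
All capitals in these runs are GC boxes, with 4 matches in LAMB1, some of them overlapping or side by side, 3 in LAMC1, 3 in ITGB1 and 0 in LAMA4. The windows are 70.4%, 79.6%, 78.4% and 48.4% G or C in that order, and the median over all 35116 RefSeq promoter windows is 58.0%. A window was found for 20 of the 26 genes. Some genes have several starts and so several windows: ITGB1 has another, 41.6% G or C, with no GC box and 3 TATA box matches. A GC box was present in 9 of the 11 windows of 9 genes that rose, in 2 of the 8 windows of 6 genes that fell, both of ITGB5, and in 42.6% of all windows. The TCF/LEF letters were in 0 of these 19 windows and in 13.2% of all windows. A match is only a match of letters, and windows rich in G and C hold more GC boxes.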

How the data were processed

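Total RNA (1000 ng per library, per the labels) was sequenced from 3 control and 3 knockdown cultures. The authors deposited whole-number counts per gene symbol, 1 column per library. The submitters' processing notes name hg19, STAR 2.6.1a, Salmon and DESeq2 without their roles, and strand setting and annotation are not given in the sources used here. A second deposited table of scaled counts was not used. All 6 columns matched the sample descriptions, with 0 columns of per-sample values unused.

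Counts were tested with edgeR 4.0.16 (R 4.3.3): TMM factors, filterByExpr, quasi-likelihood F-test, group as the only term, two-sided, Benjamini-Hochberg over all 13832 tested genes, threshold 0.05. Standard errors (SE) were derived from F and the log2 fold change, as the size of the latter over the square root of the former. CPM uses the total count of a library. Lengths, GC content and GRCh37 positions are from GENCODE 44 lifted to GRCh37, 1 canonical transcript per gene, found for 95.8% of tested genes. The length and GC correction put a spline trend of log2 CPM (prior count 2) per library into the offsets. Alternatives were other scalings, no filter, DESeq2 1.42.0, the correction, a replicate block, a threshold of 0.01 and leaving out each library. Scripts were tested on simulated data.

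Another gene of the same name form is not reported here and is left out of every count of members. The members and lists were chosen with earlier results of these data known. The named genes are IRS2, every integrin or laminin gene whose mean reached 10 counts, and known partners of a named gene. From each of 4 partner lists, up to 3 genes per direction with the smallest p are also named. FERMT1, NTN4, COL4A4, NPNT, RefSeq promoters and the values of COL3A1, PDGFRB, THY1 and FAP were added after values were seen.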

Additional observations from a re-analysis of the deposited data

How the results depend on the processing

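Over 14 alternatives, 329 of 364 log2 fold changes of the 25 tested genes and IRS2 kept direction and side of the threshold; 21 lost and 7 gained a call, and 7 changed sign, in genes that did not pass. ITGA3 was -0.0146 with library size alone, -0.0131 after the length and GC correction and -0.0134 when that was combined with the replicate block. Leaving out a library gave -0.0767 to 0.0146 for ITGAV (above 0 without control replicate 3) and -0.515 to 0.190 for ITGB2 (above 0 without control replicate 1 or 2 or knockdown replicate 1). The cause was not tested. Of the integrin and laminin genes, 18 passed, and this number lay between 14 and 20 over the alternatives and from 15 to 18 over the fits that each left out a library. Over all genes the number was lowest in DESeq2's Wald test, at 3559, with 14 of the integrin and laminin genes. That is 17.9% of 19882 genes, since the low-count filter was not used there, so this share is not like the others. The number was highest after the length and GC correction, at 5841 of 13832 genes (42.2%), with 20 of the integrin and laminin genes. With a library left out it went from 4319 (31.0%) to 5256 (37.6%). With library size alone, the median log2 fold change of all genes moved from -0.0039 to -0.03. Same-numbered libraries deviated from their group means with correlations of 0.04, -0.01 and -0.10. These small values show no clear pairing by number, but they cannot tell whether same-numbered cultures shared a day or dish. The replicate block gave 17 genes past the threshold, 11 higher and 6 lower, and 4862 over all genes; ITGA2B was the gene that dropped out (log2 fold change -0.94, edgeR adjusted p 0.0672). Counts near 10 per library limit ITGA2B, ITGB2, ITGB7 and LAMC3.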
